A study of Mus musculus with 6 samples.

Results

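The glucocorticoid-induced genes described here are 8 genes taken by their symbols from the gene table: Tsc22d3, Fkbp5, Sgk1, Ddit4, Per1, Zbtb16, Klf9 and Txnip. They are 8 of 16511 genes in the table, and all 8 were among the 12234 that passed the filter on low counts. RNA was sequenced from B lymphocytes of mouse spleen, 3 libraries labelled GPR40-KO and 3 labelled GPR40-WT. GPR40, the product of Ffar1, is a cell surface receptor that senses free fatty acids. The labels give the tissue, the cell type and the genotype, and the design text writes the mutant as GPR40-BKO. The labels name no driver of the deletion, strain, age, sex, treatment or number of animals, and no library was labelled as treated with a glucocorticoid. Whether the replicates are separate animals is not stated either, and p-values therefore reflect only how much these libraries varied, part of which may be technical.

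Glucocorticoids such as corticosterone, the main one in mice, enter the cell and bind the glucocorticoid receptor (Nr3c1), which chaperones of the Hsp90 system hold ready in the cytoplasm. The bound receptor moves to the nucleus and binds DNA at inverted repeats of a short sequence, and it raises genes such as these 8 in many cell types. In lymphocytes the hormone is known for restraining activation and for causing death of immature cells. Several of these genes also answer to other signals, among them energy stress, amino acid supply, insulin and the daily clock.

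Ffar1 went against the labels, with 273, 392 and 304 counts in the 3 libraries labelled KO and 0 counts in each of the 3 labelled WT, a limit of 3 counts per library. Every direction below is therefore that of the label on the library. Each library held between 14907080 and 15461425 estimated counts. The B cell markers were present in all libraries, and 9 of the 10 in the table summed to 8254 to 8875 CPM (counts scaled to library size, with TMM factors) in the libraries labelled KO and 5115 to 7617 CPM in those labelled WT. Markers of myeloid cells had higher summed levels in all 3 libraries labelled WT, where neutrophil markers summed to 727 to 6200 CPM against 115 to 258 CPM in those labelled KO. The library labelled KO replicate 3 stood apart in skeletal muscle markers, which summed to 831 CPM there and to between 5.35 and 12.6 CPM in the other 5.

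Sequence upstream of the genes is shown first because the receptor binds DNA directly and its best-known motif is an inverted repeat with 3 bases between the arms. In windows from 250 bases before to 50 bases after each annotated start (RefSeq, GRCm38.p6), 7 of the 8 genes had 15 windows. One of them held the inverted repeat in full (AGAACA, 3 bases, TGTTCT), a window of Sgk1, and over all genes 3 of 32851 windows did (0.00913%). The full repeat was not among the motifs planned and was taken up from this Sgk1 window. The share over all windows therefore does not measure how unusual the match is. The repeat lies on chromosome 10, shown in capitals within a stretch at chr10:21993661-21993755 on the plus strand, the strand of the gene.
Sgk1 stretch: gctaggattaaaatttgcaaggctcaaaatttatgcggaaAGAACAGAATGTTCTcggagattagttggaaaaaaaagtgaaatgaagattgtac
It ends 175 bases before the start of transcript NM_001161850 and 951 bases before that of NM_011361, the transcript to which most Sgk1 counts were assigned. For the 3 genes whose groups did not overlap below, the 250 bases before the start follow, with matches to the searched motifs in capitals. Ddit4 is at chr10:59951771-59952020 on the minus strand, the first of 2 windows of Per1 at chr11:69098699-69098948 on the plus strand, and Txnip at chr3:96557707-96557956 on the plus strand.
Ddit4 upstream: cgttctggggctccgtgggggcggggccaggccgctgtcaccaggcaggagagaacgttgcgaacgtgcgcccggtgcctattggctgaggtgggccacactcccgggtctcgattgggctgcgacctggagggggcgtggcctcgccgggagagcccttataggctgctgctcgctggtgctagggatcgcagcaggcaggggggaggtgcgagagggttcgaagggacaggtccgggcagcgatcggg
Per1 upstream: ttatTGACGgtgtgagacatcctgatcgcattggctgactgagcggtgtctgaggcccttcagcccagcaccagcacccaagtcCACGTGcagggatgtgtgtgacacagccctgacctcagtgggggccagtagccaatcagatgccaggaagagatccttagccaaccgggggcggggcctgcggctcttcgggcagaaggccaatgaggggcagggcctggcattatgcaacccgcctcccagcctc
Txnip upstream: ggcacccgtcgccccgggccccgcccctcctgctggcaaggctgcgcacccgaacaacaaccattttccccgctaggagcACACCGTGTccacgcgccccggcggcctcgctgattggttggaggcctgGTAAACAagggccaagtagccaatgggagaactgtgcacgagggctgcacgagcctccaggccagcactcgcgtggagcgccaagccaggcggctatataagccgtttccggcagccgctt
Capitals mark the receptor core ACANNNTGT and the forkhead motif GTAAACA in Txnip, and the E-box CACGTG, bound by clock factors, and the shortened cAMP response motif TGACG in Per1. The Ddit4 window held none of the letters searched. Both strands were searched, the 6-base receptor arm TGTTCT is part of the inverted repeat, and TGACG is part of the full cAMP element TGACGTCA. The core was in 3 of the 15 windows and in 6.85% of all windows, the arm TGTTCT in 4 and 19.0%, the E-box in 3 and 7.15%, TGACG in 5 and 20.8%, TGACGTCA in 0 and 1.79%, and the forkhead motif in 2 and 3.65%. Sgk1 alone had 6 of the 15 windows. Outside Sgk1 the core was found only in Txnip and the arm TGTTCT only in Tsc22d3. A match describes letters and not a bound site.

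Ddit4 and Per1 were higher in the libraries labelled KO. Sgk1 and Txnip did not pass the main test but passed in some of the alternative fits. Tsc22d3 and Fkbp5 had similar levels in both groups, and Zbtb16 and Klf9 were high in 1 library. By the main test (edgeR's quasi-likelihood test, Benjamini-Hochberg adjusted p under 0.05), 2 of the 8 were higher, 0 were lower and 6 did not pass, where 9.37% of all tested genes were called, 4.55% as higher and 4.81% as lower. At an unadjusted p under 0.05 there were 4 of 8. The share of all tested genes at that level was not counted. This count and later ones like it therefore have no background beside them and set no gene or list apart. DESeq2 called Ddit4 and Per1 higher and Sgk1 lower among the 7 it tested, where it called 16.4% of all genes, 6.34% as higher and 10.1% as lower. With the replicate number as a block, Ddit4, Per1 and Txnip were called higher and Sgk1 lower, where 20.7% of all genes were called, 7.96% as higher and 12.8% as lower. RLE scaling and no filter on low counts gave the same 2 calls, against 9.42% and 6.09% of all genes. Ddit4 alone was called without labelled KO replicate 1, 2 or 3 (3.02%, 2.09% and 5.01% of all genes), without labelled WT replicate 1 or 3 (5.65% and 4.22%) and without both labelled KO replicate 3 and labelled WT replicate 1 (4.65%), and 4 of the 8 were called without labelled WT replicate 2 (16.2%). The groups did not overlap for 3 of the 8 genes, all 3 with the libraries labelled KO above, against 33.4% of all tested genes, 17.5% with the libraries labelled KO above and 15.9% with them below. The median log2 fold change was 0.37 over the 8 genes and 0.01 over all tested genes. Without the library labelled KO replicate 3 the median of the 8 was -0.07. In bulk RNA, fewer cells of a type and less RNA per cell cannot be told apart.

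**Figure D1:**
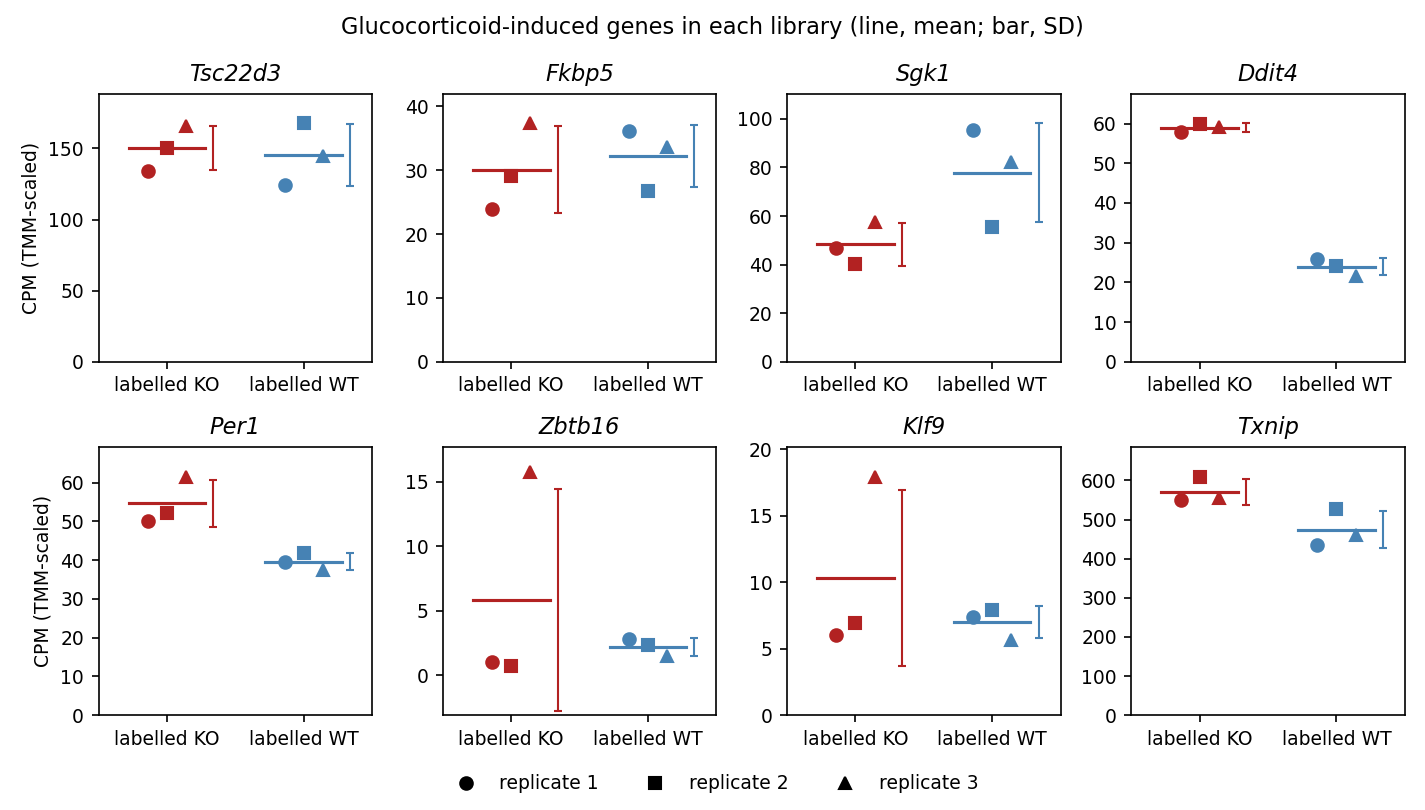
CPM (TMM-scaled, linear axes) of the 8 genes in each library, with replicates as symbols, group means as lines and SD as bars beside them (n = 3). Ddit4, Per1 and Txnip have all 3 libraries labelled KO above all 3 labelled WT, and Zbtb16 and Klf9 have 1 high library, labelled KO replicate 3.

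Ddit4 encodes REDD1, a protein induced by glucocorticoids, hypoxia and energy stress that restrains the growth kinase mTORC1 through the TSC complex. It lies on chromosome 10 at 59949675 to 59951770 (GRCm38.p6). Its level was 57.8, 59.9 and 59.2 CPM in the libraries labelled KO, against 26.0, 24.2 and 21.7 CPM in those labelled WT. The groups lay far apart and each was tight, with means of 59.0 ± 1.08 and 24.0 ± 2.15 CPM in the libraries labelled KO and WT (SD, n = 3 each). This gave a log2 fold change of 1.30 ± 0.11 (SE, 95% interval 1.06 to 1.54), a 2.46-fold higher level in the libraries labelled KO (edgeR adjusted p = 4.32e-04). It was called whichever single library was left out, with log2 fold changes of 1.24 to 1.36 and adjusted p-values up to 0.00538. Of the 8 genes it had the smallest adjusted p. The 1 transcript to which all its counts were assigned, NM_029083, had a log2 fold change of 1.29 ± 0.11 and was the 1 transcript called among 17 tested of the 8 genes (edgeR adjusted p = 0.0374), where 0.154% of 31150 tested transcripts were called. Without any 1 library it was not called (adjusted p-values up to 0.234), in fits that called at most 5 transcripts in all. With the replicate block the transcript had an adjusted p of 0.167, and 0 transcripts in all were called by that fit although 2896 were at an unadjusted p under 0.05.

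Of 18 tested genes that work beside Ddit4 in the control of mTORC1, 0 were higher and 2 were lower in the libraries labelled KO by the main test, and 1 was higher and 2 lower with the replicate block. Over all tested genes the main test called 4.55% higher and 4.81% lower, and the block 7.96% and 12.8%. Trib3, a pseudokinase induced by amino acid and endoplasmic reticulum stress, fell to 13.7, 15.1 and 16.9 CPM in the libraries labelled KO, against 29.8, 35.5 and 28.6 CPM in those labelled WT (log2 fold change -1.04 ± 0.14, SE, edgeR adjusted p = 0.00499), and kept its call in every fit that left out 1 library. Castor2, a gene of the family that senses arginine for mTORC1, fell by 0.80 ± 0.20 on the log2 scale (adjusted p = 0.0468) and lost the call without any 1 of 4 libraries. Sesn3, a sestrin that inhibits mTORC1, had a log2 fold change of 0.40 ± 0.13 (adjusted p = 0.0804, and 0.0209 with the block), and Tsc2, a subunit of the TSC complex, 0.26 ± 0.09 (adjusted p = 0.0948). The median log2 fold change of the list was near 0, at -1.63e-04.

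Per1 encodes a period protein, a repressor in the daily clock that glucocorticoids induce directly in many tissues, and lies on chromosome 11 at 69095108 to 69109965. Its level was 50.2, 52.1 and 61.6 CPM in the libraries labelled KO, against 39.5, 41.9 and 37.4 CPM in those labelled WT. There was no overlap, and the library labelled KO replicate 3 was the highest. The summed level of 9 of the 10 B cell markers had a ratio of group means of 1.35, labelled KO over WT. The part of B cell content in the values of Per1, Ddit4 and Txnip was not tested. The log2 fold change of Per1 was 0.46 ± 0.11 (SE, 95% interval 0.21 to 0.72), a 1.38-fold higher level (edgeR adjusted p = 0.0405). The call was lost without any 1 of 5 libraries, all but labelled WT replicate 2, with adjusted p-values up to 0.130 and log2 fold changes of 0.37 to 0.52. Counts were spread over 7 annotated transcripts whose shares differed widely between libraries, with NM_011065 at 31.9 to 74.6% in the libraries labelled KO and 46.3 to 61.6% in those labelled WT, and 0 of the 4 tested were called.

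None of the other clock genes was called higher by the main test, where 4.55% of all tested genes were called higher and 4.81% lower. Of 19 tested clock genes, 0 were higher and 1 was lower, Csnk1e, a casein kinase that phosphorylates period proteins (log2 fold change -0.66 ± 0.12, edgeR adjusted p = 0.0178), and its call was lost without labelled KO replicate 2 or 3 or labelled WT replicate 3. With the block 2 were lower, against 12.8% of all genes. Without both labelled WT replicate 1 and labelled KO replicate 3, 0 were called, against 4.65% of all genes. The other period genes, Per2 and Per3, had log2 fold changes of -0.07 ± 0.31 and 0.08 ± 0.19 (adjusted p = 0.905 and 0.824). Dbp, a clock output gene that is activated through E-boxes, had 0.49 ± 0.27 (adjusted p = 0.271). The nuclear receptor Rora had -0.85 ± 0.27 (adjusted p = 0.0819), the repressor Nfil3 -0.72 ± 0.27 (adjusted p = 0.121) and the repressor Bhlhe41 0.30 ± 0.12 (adjusted p = 0.154). The labels do not give the hour at which spleens were taken.

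**Figure D2:**
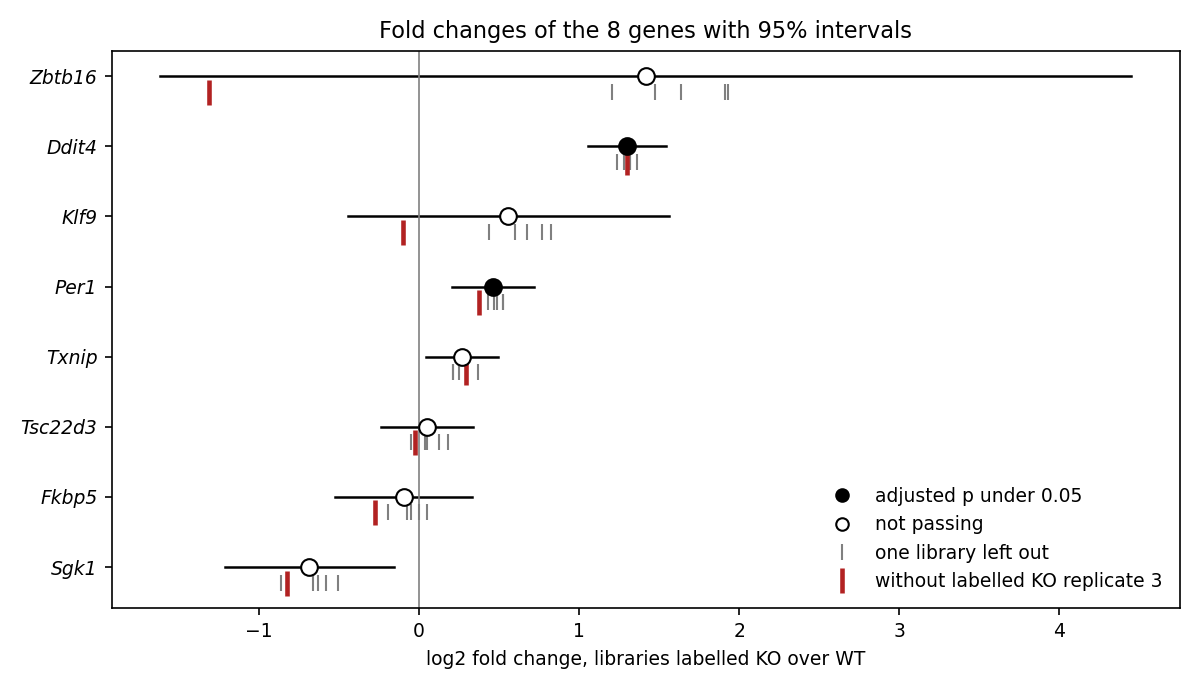
Log2 fold change of each gene, libraries labelled KO over WT, with 95% intervals from edgeR (filled, adjusted p under 0.05) and, as ticks below, the estimates with 1 library left out. Without labelled KO replicate 3 (thick tick) Zbtb16 moves to -1.31 and Klf9 to -0.10, while Ddit4 keeps between 1.24 and 1.36 in all 6 such fits.

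Sgk1 encodes a kinase related to AKT that is activated by mTORC2 and regulates ion transport and FOXO factors, and it lies on chromosome 10 at 21882184 to 21999903. Its level was 46.8, 40.5 and 57.7 CPM in the libraries labelled KO, against 95.4, 55.5 and 82.4 CPM in those labelled WT. The groups overlapped in 1 pair, labelled KO replicate 3 above labelled WT replicate 2. The log2 fold change was -0.69 ± 0.22 (SE, 95% interval -1.22 to -0.16) and did not pass the main test (edgeR adjusted p = 0.100). It passed with the replicate block (adjusted p = 0.00579), with DESeq2 (adjusted p = 0.0130) and without labelled WT replicate 2 (edgeR adjusted p = 0.0112). Monocyte and macrophage markers had the same order of group means, with summed levels of 957 to 1761 CPM in the libraries labelled KO and 2149 to 5757 CPM in those labelled WT, and 0 of the 12 markers was at 0 in any library. Their part in the Sgk1 values was not tested.

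The Sgk1 counts were assigned mainly to 1 transcript, and the shares were not tested. NM_011361, whose start lies 951 bases after the inverted repeat printed above, held 85.4, 95.9 and 89.9% of the Sgk1 counts in the libraries labelled KO, against 72.9, 79.7 and 83.3% in those labelled WT. NM_001161849, which starts 1492 bases before the end of that repeat, had 37.6, 13.8 and 72.5 estimated counts in the libraries labelled KO and 389, 87.4 and 208 in those labelled WT. Neither share overlapped between the groups. Both are parts of the same total, so they are not independent, and how many other transcript shares do not overlap was not counted. For NM_001161849 the log2 fold change was -2.42 ± 0.82 and did not pass over all transcripts (edgeR adjusted p = 0.374, unadjusted p = 0.0266), and that of NM_011361 was -0.49 ± 0.22 (adjusted p = 0.564). Of 8 tested activators and substrates of SGK1, 0 were called by the main fit, against 9.37% of all tested genes. At an unadjusted p under 0.05 there were 2. DESeq2 called 0 higher and 1 lower, against 6.34% and 10.1% of all genes. Rictor, a subunit of mTORC2, had a log2 fold change of -0.38 ± 0.11 (adjusted p = 0.0572) and was called lower with the block (adjusted p = 0.00926). Mapkap1, another subunit of mTORC2, had 0.19 ± 0.08 (adjusted p = 0.176), and Nedd4l, a ubiquitin ligase and substrate, 0.13 ± 0.10 (adjusted p = 0.453).

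Txnip encodes an arrestin-like protein that binds thioredoxin and limits glucose uptake, and it lies on chromosome 3 at 96557957 to 96561857. Its level was 549.9, 610.0 and 554.6 CPM in the libraries labelled KO, against 435, 528 and 460.3 CPM in those labelled WT. There was no overlap, but the lowest library labelled KO was close to the highest labelled WT. The log2 fold change was 0.27 ± 0.10 (SE, 95% interval 0.04 to 0.49) and did not pass the main test (edgeR adjusted p = 0.116). It passed with the replicate block (adjusted p = 0.0368) and without labelled WT replicate 2 (adjusted p = 0.0339). Its counts were split between 2 transcripts at similar shares in both groups, with NM_001009935 at 55.3 to 60.3% in the libraries labelled KO and 57.5 to 60.9% in those labelled WT. An annotated long non-coding RNA, Gm15441, overlaps Txnip on the genome and is not in the gene table; the protocols state no step that marks the strand, so its reads could not be told apart from those of Txnip. Annotated genes also overlap Fkbp5, Sgk1, Klf9 and Zbtb16.

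Arrdc4, the closest relative of Txnip in glucose sensing, had 4.04, 1.66 and 4.35 CPM in the libraries labelled KO, against 10.9, 6.44 and 7.86 CPM in those labelled WT. All 3 libraries labelled KO were below, with a log2 fold change of -1.32 ± 0.40 that did not pass the main test (edgeR adjusted p = 0.0752) and was called lower with the block (adjusted p = 0.0129). Of 11 tested genes of thioredoxin and glucose sensing, 0 were higher and 2 were lower, and 4 were lower with the block. Over all tested genes 4.55% were higher and 4.81% lower, and 12.8% were lower with the block. Map3k5, the stress kinase ASK1 that thioredoxin holds inactive, fell by 0.80 ± 0.13 on the log2 scale (adjusted p = 0.0104, lost without labelled KO replicate 1), and Nlrp3, the inflammasome sensor of myeloid cells, fell by 1.63 ± 0.38 (adjusted p = 0.0370, lost without any 1 of 5 libraries). Slc2a1, the glucose transporter GLUT1, had a log2 fold change of 0.31 ± 0.11 (adjusted p = 0.105).

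Tsc22d3 encodes GILZ, a leucine zipper protein that mediates part of the anti-inflammatory action of glucocorticoids, and Fkbp5 encodes a co-chaperone that lowers the receptor's affinity for hormone. They lie on chromosome X at 140539528 to 140600522 and on chromosome 17 at 28398753 to 28486149. Tsc22d3 had 135, 151 and 166 CPM in the libraries labelled KO, against 124, 168 and 145 CPM in those labelled WT. Fkbp5 had 23.9, 29.0 and 37.3 CPM in the libraries labelled KO, against 36.1, 26.7 and 33.7 CPM in those labelled WT. The groups overlapped for both, and neither order of the means held in every fit with 1 library left out. The log2 fold change of Tsc22d3 was 0.05 ± 0.13 (SE, 95% interval -0.24 to 0.34, edgeR adjusted p = 0.841) and that of Fkbp5 -0.10 ± 0.19 (95% interval -0.52 to 0.33, adjusted p = 0.780). A p that misses the threshold does not show equal levels, and the intervals bound the difference. Most Tsc22d3 counts were assigned to XM_036161820, at 78.6 to 85.3% in the libraries labelled KO and 69.4 to 84.0% in those labelled WT. The genes whose profile over the 6 libraries lay nearest to that of Tsc22d3 were Elmod3, Fyttd1 and Rwdd2b, with mean absolute differences of 0.0271, 0.0283 and 0.0355 on centred log2(CPM + 1).

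Zbtb16 encodes PLZF, a zinc finger factor of innate-like lymphocytes and stem cells, and Klf9 a Krüppel-like factor that the receptor induces in many tissues. They lie on chromosome 9 at 48651797 to 48836225 and on chromosome 19 at 23141226 to 23168129. Zbtb16 had 15, 11 and 235 counts in the libraries labelled KO, against 43, 35 and 22 counts in those labelled WT, or 1.01, 0.73 and 15.7 against 2.78, 2.30 and 1.45 CPM. The library labelled KO replicate 3 was the highest and the other 2 labelled KO were below all 3 labelled WT. Its log2 fold change was 1.42 ± 1.22 (SE, 95% interval -1.62 to 4.45, edgeR adjusted p = 0.506), and without that library it was -1.31 (adjusted p = 0.183). Markers of NK and innate-like T cells summed to 8.55, 8.79 and 8.37 CPM in the libraries labelled KO, against 30.8, 27.3 and 15.1 CPM in those labelled WT, and the part of such cells in the Zbtb16 values was not tested. All 235 Zbtb16 counts of labelled KO replicate 3 were assigned to transcript NM_001364543 and all counts of the other 5 libraries to NM_001033324. Klf9 had 6.06, 6.92 and 18.0 CPM in the libraries labelled KO, against 7.38, 7.95 and 5.68 CPM in those labelled WT. The same library was again the highest, with a log2 fold change of 0.56 ± 0.43 (95% interval -0.44 to 1.56, adjusted p = 0.441) and -0.10 without it.

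The high library was also the highest for some other glucocorticoid-induced genes, among them Pdk4 and Mt2, but not for all. Dusp1 had 12.7 CPM there and 28.9 CPM in labelled WT replicate 1. How many genes of that list were highest there was not counted. Labelled KO replicate 3 was the highest of the 6 libraries for 4 of the 8 genes, Fkbp5, Per1, Zbtb16 and Klf9, and for 17.7% of all tested genes. It exceeded the next library by at least 2-fold in CPM + 1 for 0.801% of all tested genes. Pdk4, a kinase that switches muscle and liver to fat oxidation, had 0, 3 and 589 counts in the libraries labelled KO, against 11, 0 and 0 in those labelled WT. Mt2, a metallothionein, had 9, 5 and 226 counts in the libraries labelled KO, against 3, 7 and 8 in those labelled WT. Pdk4 and Mt2 did not pass the filter and were named after their values were seen. Ndrg2, a substrate of SGK1 that muscle and other tissues express, had 0.47, 0.13 and 22.9 CPM in the libraries labelled KO, against 3.88, 0.66 and 0.46 CPM in those labelled WT (log2 fold change 2.23 ± 1.95, edgeR adjusted p = 0.518). Skeletal muscle markers moved with them, led by Acta1, Myh4 and Ckm at 240.2, 224 and 131 CPM in that library and at most 0.73 CPM in any other, and 0 of the 8 markers was at 0 there. Of the 5 muscle markers that were tested, 2 had all 3 libraries labelled KO above all 3 labelled WT, as did 17.5% of all tested genes. Stromal markers summed to 546 CPM in labelled KO replicate 3 and to between 3.46 and 21.2 CPM in the other 5. The part of these cells in the Zbtb16 and Klf9 values was not tested.

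**Figure D3:**
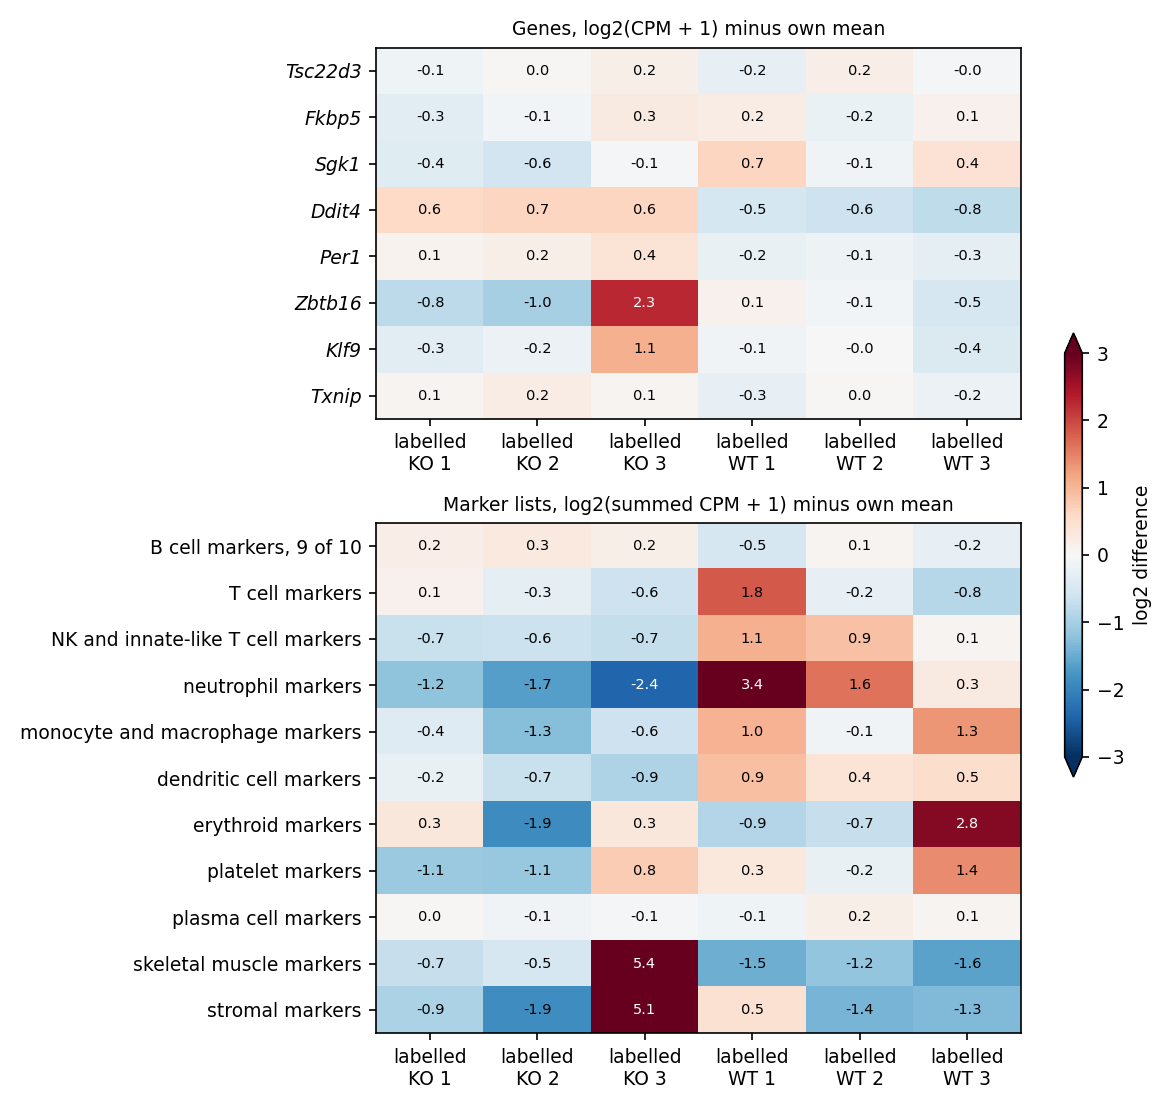
Upper block, the 8 genes as log2(CPM + 1) minus their own mean over the 6 libraries; lower block, summed levels of marker lists as log2(summed CPM + 1) minus their own mean. Labelled KO replicate 3 is highest for Zbtb16 and Klf9 and for skeletal muscle and stromal markers, and neutrophil markers are higher in all 3 libraries labelled WT.

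Levels between genes were compared on TPM, which is scaled to transcript length. In the libraries labelled KO the mean TPM level ran from Txnip (376 ± 32.8, SD, n = 3) through Tsc22d3 (117 ± 8.85), Ddit4 (69.9 ± 2.96), Sgk1 (36.5 ± 5.19), Per1 (20.0 ± 1.55), Fkbp5 (13.7 ± 2.65) and Klf9 (3.99 ± 2.41) to Zbtb16 (1.26 ± 1.84), and of the neighbours in this order only Klf9 and Zbtb16 overlapped. In those labelled WT the order was Txnip (316 ± 36.6), Tsc22d3 (115 ± 16.7), Sgk1 (59.6 ± 15.2), Ddit4 (28.8 ± 2.89), Fkbp5 (14.9 ± 2.09), Per1 (14.7 ± 1.18), Klf9 (2.79 ± 0.52) and Zbtb16 (0.49 ± 0.16), and only Fkbp5 and Per1 overlapped. Ddit4 and Sgk1 thus exchanged places. The ratio of the Ddit4 TPM level to that of Sgk1 was 1.93, 2.31 and 1.60 in the libraries labelled KO, against 0.43, 0.68 and 0.41 in those labelled WT.

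**Figure D4:**
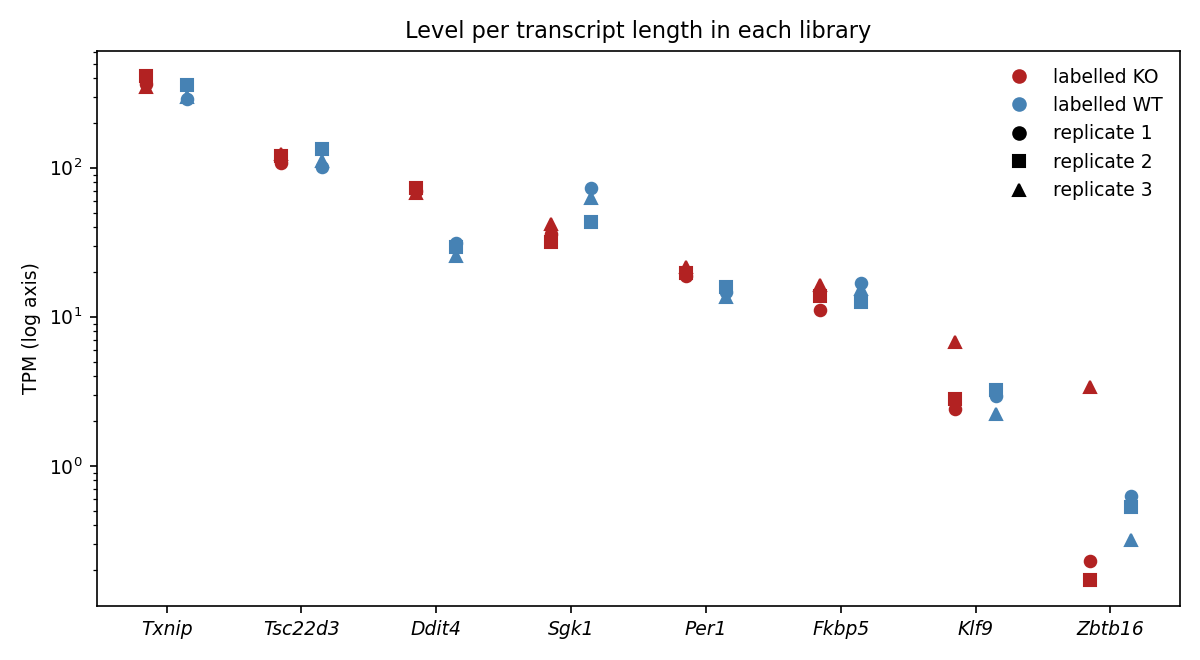
TPM of the 8 genes in each library on a log axis, ordered by mean level, libraries labelled KO left of those labelled WT within each gene and replicates as symbols. Ddit4 lies above Sgk1 in all 3 libraries labelled KO and below it in all 3 labelled WT.

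The receptor itself was measured well. Nr3c1 had 230, 249.9 and 217 CPM in the libraries labelled KO, against 209.6, 206 and 195 CPM in those labelled WT. All 3 libraries labelled KO were above, with a log2 fold change of 0.19 ± 0.08 that did not pass (edgeR adjusted p = 0.177). The main test called 4.55% of all tested genes higher and 4.81% lower. The list of the receptor and its chaperones also held Nr3c2, Hsd11b1, H6pd, Abcb1a and Abcb1b, which are neither that receptor nor chaperones. The median of the chaperones alone was not computed. Of all 15 tested genes of the list, 0 were higher and 2 were lower in the libraries labelled KO, with a list median of -0.30. These were Ptges3, the co-chaperone p23 that stabilises the receptor's hormone-binding form (log2 fold change -0.30 ± 0.08, adjusted p = 0.0445), and Hspa8, a constitutive Hsp70 (-0.41 ± 0.11, adjusted p = 0.0498). The call of Ptges3 was lost without any 1 library and that of Hspa8 without any 1 of 5. St13, a co-chaperone that binds Hsp70, had -0.33 ± 0.10 (adjusted p = 0.0769), and Ppp5c, a phosphatase of the receptor complex, 0.27 ± 0.09 (adjusted p = 0.105). With the block 0 were higher and 4 lower, against 7.96% and 12.8% of all genes. Without both labelled WT replicate 1 and labelled KO replicate 3, 0 were called, against 4.65% of all genes. Of 12 receptor coregulators 0 were called by edgeR's main test, against 9.37% of all tested genes, and 4 were at an unadjusted p under 0.05. DESeq2 and the block each called 1 higher and 1 lower, and they called 16.4% and 20.7% of all genes in either direction. Ncoa3, a coactivator, had a log2 fold change of 0.29 ± 0.08 (edgeR adjusted p = 0.0539) and Nrip1, a corepressor, -0.43 ± 0.12 (adjusted p = 0.0630). The coactivators Ncoa2 and Ncoa1 had -0.26 ± 0.09 (adjusted p = 0.103) and 0.21 ± 0.08 (adjusted p = 0.113).

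Other genes known to be raised by glucocorticoids were, where they passed, lower in the libraries labelled KO, the opposite of Ddit4 and Per1. Of 30 tested, 0 were higher, 6 were lower and 24 did not pass, with a list median of -0.44. The main test called 4.55% of all genes higher and 4.81% lower. The block called 1 of the list higher and 13 lower, against 7.96% and 12.8% of all genes. Bcl2l11, the pro-death protein BIM, had 129, 125 and 114 CPM in the libraries labelled KO, against 193, 169 and 158 CPM in those labelled WT (log2 fold change -0.50 ± 0.10, edgeR adjusted p = 0.0220). Foxo1, a forkhead factor of B cell development, fell by 0.48 ± 0.11 on the log2 scale (adjusted p = 0.0326), Irs2, an insulin receptor substrate, by 0.40 ± 0.09 (adjusted p = 0.0355), and Cebpd, a factor of myeloid cells, by 1.60 ± 0.35 (adjusted p = 0.0333). The other 2 were Dusp1, a phosphatase of MAP kinases (-1.08 ± 0.26, adjusted p = 0.0390), and Rgs2, a regulator of G protein signalling (-0.61 ± 0.15, adjusted p = 0.0411). Each of the 6 calls was lost without at least 3 of the 6 libraries taken 1 at a time. Without both labelled WT replicate 1 and labelled KO replicate 3, 2 genes were lower, against 1.88% of all genes. Neutrophil markers lay on the same side. Every library labelled KO was below every library labelled WT for 12 of 12 markers and for 15.9% of all tested genes. The most abundant markers were S100a9, Ngp and S100a8, and 2 of the 12 passed the test as lower, Elane and Mpo. Of the 12, 1 was at 0 in labelled KO replicate 3 and 0 in the other 5 libraries. The part of such cells in these 6 values was not tested.

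Genes known to be repressed by glucocorticoids also lay mostly lower. Of 9 tested, 1 was higher and 3 were lower, with a list median of -1.13, and 6 of the 15 listed did not pass the filter. Among all tested genes 4.55% were higher and 4.81% lower. The cytokine genes Tnf and Il1b fell by 1.10 ± 0.23 and 1.81 ± 0.46 on the log2 scale (edgeR adjusted p = 0.0280 and 0.0452), and the chemokine gene Cxcl10 by 2.98 ± 0.75 (adjusted p = 0.0492). Ifng, the gene of interferon gamma, was higher, with 37, 42 and 27 counts in the libraries labelled KO and 0, 4 and 2 in those labelled WT (adjusted p = 0.0233). Ifng passed the filter on low counts only through the libraries labelled KO. It was thus among the tested genes because of the group in which it was high, and its call is no separate support. With the block 1 was higher and 5 lower, against 7.96% and 12.8% of all genes. Without both labelled WT replicate 1 and labelled KO replicate 3, 1 was higher and 0 lower, against 2.77% and 1.88%. Each of the 4 calls was lost without at least 3 libraries taken 1 at a time. Summed levels of neutrophil, monocyte and macrophage, and dendritic cell markers averaged 188, 1408 and 49.7 CPM in the libraries labelled KO, against 2925, 4219.9 and 116 CPM in those labelled WT, and the part of such cells in these values was not tested.

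FOXO factors are restrained by SGK1 and share targets with the receptor. Of 18 tested FOXO targets, 1 was higher and 5 were lower, with a list median of -0.15, and the block called 4 higher and 4 lower. The shares over all tested genes were 4.55% higher and 4.81% lower, and 7.96% and 12.8% with the block. Klf2, a factor of lymphocyte quiescence and trafficking, rose to 357, 387 and 328 CPM in the libraries labelled KO, against 183, 212 and 183 CPM in those labelled WT (log2 fold change 0.89 ± 0.10, edgeR adjusted p = 0.00181), and was called whichever library was left out. Rag1 and Rag2, the recombinase genes of immature lymphocytes, fell by 2.37 ± 0.37 and 2.28 ± 0.46 on the log2 scale (adjusted p = 0.0233 and 0.0333), and neither was called with the block (adjusted p = 0.114 and 0.0585) or without any 1 of 4 libraries, the 3 labelled KO and labelled WT replicate 3. The other 3 were Irs2, named above, Cited2, a transcriptional coregulator (-0.47 ± 0.11, adjusted p = 0.0364), and Gadd45a, a stress and DNA damage gene (-0.62 ± 0.14, adjusted p = 0.0361), each of whose calls was lost without at least 4 of the libraries taken 1 at a time.

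Among 15 tested relatives of the 8 genes, 3 were higher and 0 lower, and the block called 3 higher and 3 lower. Among all tested genes the shares were 4.55% higher and 4.81% lower, and 7.96% and 12.8% with the block. Zbtb32, a repressor of lymphocyte proliferation in the family of Zbtb16, had 17.8, 12.8 and 13.1 CPM in the libraries labelled KO, against 1.17, 0.53 and 1.06 CPM in those labelled WT, and was called whichever library was left out (log2 fold change 3.98 ± 0.34, edgeR adjusted p = 5.57e-04). Tsc22d4, in the family of Tsc22d3, and Arrdc1, an arrestin relative of Txnip, rose by 0.39 ± 0.09 and 0.36 ± 0.08 on the log2 scale (adjusted p = 0.0333 and 0.0382), and lost their calls without at least 4 of the libraries taken 1 at a time. Sgk3, a kinase related to SGK1, had -0.44 ± 0.11 (adjusted p = 0.0507). Zbtb32 thus had 3 high libraries labelled KO, as Ffar1 did, where Zbtb16 had 1. The place of Zbtb32 on the genome relative to Ffar1 was not examined. Whether its values relate to the Ffar1 locus or to Zbtb16 was not tested.

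**Figure D5:**
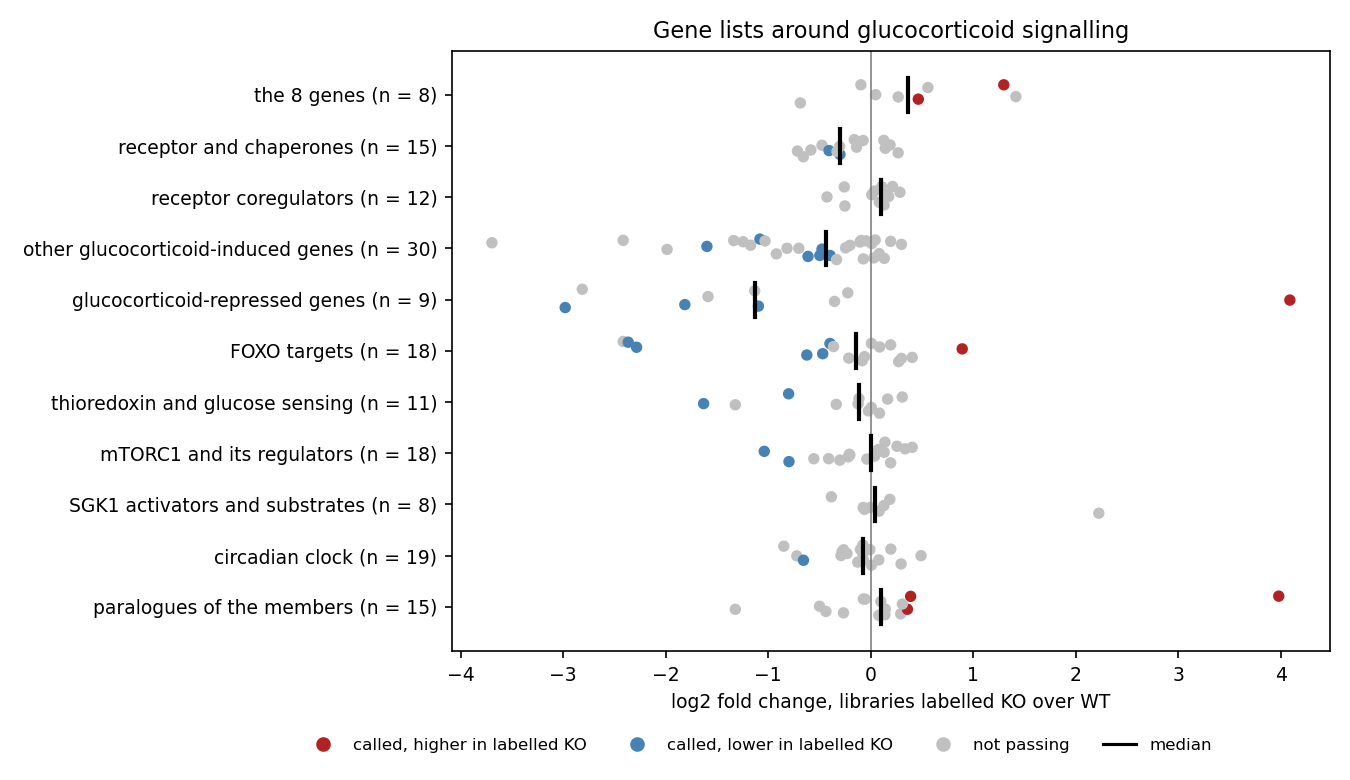
Log2 fold changes, libraries labelled KO over WT, of every tested gene in the 8 glucocorticoid-induced genes and in 10 related lists, coloured by the edgeR call, with the list median as a bar. The median is 0.37 for the 8 genes, -0.44 for other glucocorticoid-induced genes and -1.13 for glucocorticoid-repressed genes.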

How the data were processed

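B cells were enriched by magnetic negative selection, and RNA of 6 libraries was captured with oligo(dT) and read from both ends on a BGISEQ-500, per the labels' protocols. RSEM 1.3.1, Bowtie2 2.2.5, HISAT2 2.0.4 and the build mm10 are named in the submitters' processing notes, with no role given. The authors deposited estimated counts per gene and transcript, and TPM scaled to length and depth, per the file headers. Another 24 per-library columns were not used. Estimated counts were rounded and tested with edgeR 4.0.16 in R 4.3.3 (filterByExpr, TMM, robust quasi-likelihood F-test on the label, Benjamini-Hochberg threshold 0.05 over all genes or transcripts), with standard errors from the F statistic. A floor of 3 counts, about 0.2 CPM, covers counting error only. The procedure was tested on simulated data. DESeq2 1.42.0, RLE scaling, no filter, a replicate block and leaving out libraries were alternatives. Same-numbered libraries deviated together across genes (r = 0.175, 0.435 and 0.216), and the replicate block was given as an alternative to the main fit, which used the label alone; deviations sum to 0 within a group, and the pairing comes from the data, not the labels. No 2 replicates agreed within sampling noise (chi-square per degree of freedom at least 11.8).

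The 8 genes, the lists and the tests were chosen with earlier results of these data known. Besides all 8 and Ffar1, the rule names Nr3c1, up to 4 genes of smallest p per list, marker sums with their top genes, and the 3 profiles nearest to Tsc22d3; genes named beyond it (Elane, Mpo, Per2, Per3, Dbp, Dusp1, Rgs2, Cited2, Gadd45a, Pdk4 and Mt2) were chosen after their values were seen. Of the gene identifiers, 16401 of 16511 matched the RefSeq table (GRCm38.p6, the same build as mm10). One further marker gene is not reported here.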

Additional observations from a re-analysis of the deposited data

How the results depend on the processing

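Ddit4 was called higher under every alternative run, and RLE scaling and no filter on low counts changed no call among the 8 genes. With the replicate block the calls were 2535 genes (974 higher, 1561 lower), and DESeq2 called 2210 (853 higher, 1357 lower), against 1146 (557 higher, 589 lower). Leaving out 1 library gave 264 to 2030 genes, the lowest without labelled KO replicate 2 and the highest without labelled WT replicate 2. Leaving out both labelled KO replicate 3 and labelled WT replicate 1, which was added once the data had been seen, gave 567.

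Among the 8 genes, 4 were called with the replicate block, 1 to 4 with 1 library left out and 1 with both left out. With 1 library left out, the log2 fold change of Per1 was 0.37 to 0.52 (5 of 6 fits lost the call), of Ddit4 1.24 to 1.36, of Sgk1 -0.86 to -0.51, of Txnip 0.21 to 0.37, of Klf9 -0.10 to 0.83, of Zbtb16 -1.31 to 1.93, of Fkbp5 -0.28 to 0.048 and of Tsc22d3 -0.052 to 0.18. With both left out Per1 was 0.37 and lost its call. Sgk1 passed with the replicate block at -0.67, with DESeq2 at -0.69 and without labelled WT replicate 2 at -0.86; Txnip passed with the block at 0.27 and without labelled WT replicate 2 at 0.37. The sign turned for 4 genes that never passed. It turned for Fkbp5 without labelled KO replicate 1 (0.048), for Klf9 and Zbtb16 without labelled KO replicate 3 (-0.10 and -1.31), and for Tsc22d3 without that library (-0.026) or labelled WT replicate 1 (-0.052). With both left out, Klf9 was -0.073, Tsc22d3 -0.13 and Zbtb16 -1.10. The cause was not tested.

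For the lists, the replicate block called 14 other glucocorticoid-induced genes, 6 paralogues, 4 of the receptor and chaperones, 4 of thioredoxin and glucose sensing, 2 coregulators, 2 clock genes and 1 of the SGK1 list. That fit called 20.7% of all tested genes. With both libraries left out the calls were 2 other glucocorticoid-induced genes, 1 glucocorticoid-repressed gene, 1 of the mTORC1 list, 1 of thioredoxin and glucose sensing, 0 clock genes and 0 of the receptor and chaperones. The fit without both called 4.65% of all tested genes. Of the transcripts of the 8 genes, 0 were called with the block, which called 0 of all transcripts, and 0 without any 1 library, where at most 5 of all transcripts were called. The replicate block changed no other call among the 8 genes. With 3 libraries a group, the genes that did not pass may differ by any amount within their printed intervals.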
